A study of Mus musculus with 41 samples.

Results

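Protocadherins are the largest branch of the cadherin family of cell adhesion proteins, and their genes were followed here in the hippocampus of 41 male mice. Members were all probe sets whose platform gene symbol, or any of several symbols, began with Pcdh, with 1 probe set kept per gene or symbol set, the brightest over the 41 arrays. This gave 37 members from 68 probe sets, out of 18828 genes or symbol sets named on the array and 45037 probe sets other than controls. Clustered members, whose genes lie in the Pcdha, Pcdhb and Pcdhg arrays, numbered 25, and non-clustered members numbered 12.

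All animals were inbred male C57BL/6J mice, and the labels name no genetic change or drug in any group. A battery of behavioural tests began at 10 weeks of age. Its cognitive tests were the Barnes maze (until week 11), the radial maze (weeks 12 to 14), the T-maze (weeks 15 to 19), fear conditioning (week 33) and passive avoidance (weeks 37 to 38). The hippocampus was collected 1 month after testing ended, and its RNA was hybridised to 1 Affymetrix array per mouse. A pair of ranking systems placed 8 mice in the low, 12 in the medium and 5 in the high cognition group, 14 mice were ranked inconsistently (1 of them carrying contradictory labels), and 2 had incomplete data. The groups are therefore ranks within 1 inbred strain, and every mouse, high or low, had been through the whole battery. The question put to the family was whether its transcripts differed between mice that ranked high, medium and low.

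Protocadherins carry extracellular cadherin repeats that bind the same protein on a facing cell. In the alpha and gamma clusters each variable exon has its own promoter and is spliced to shared constant exons, whereas each beta gene is a single coding exon. Neurons choose among these promoters, with CTCF and cohesin joining the chosen promoter to distant enhancers, and the resulting mixture of proteins gives a neuron a surface identity used in self-avoidance and axon sorting. The non-clustered delta genes are expressed in regional patterns, act in axon growth, spine density and synapse assembly, and differ in their cytoplasmic tails, through which some of them recruit the WAVE actin regulators.

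Sequences of 300 bases around the start of transcription, 250 before and 50 after it, were taken from RefSeq (GRCm38.p6) for 9 of the 37 members, all of them non-clustered. Those of Pcdh8 and Pcdh19, and of Pcdh7 and Pcdh9, are shown because these genes varied together over the arrays, and that of Pcdh20 because this gene departed farthest from the other arrays on 1 array. Each sequence is written 5′ to 3′ on the strand of its gene, and capitals mark the CCAAT box (CCAAT, or ATTGG on the other strand), the GC box (GGGCGG or CCGCCC) and the TATA box (TATAAA or TTTATA), none of which overlap in these sequences.
Pcdh8 (chr14:79771263-79771562, minus strand): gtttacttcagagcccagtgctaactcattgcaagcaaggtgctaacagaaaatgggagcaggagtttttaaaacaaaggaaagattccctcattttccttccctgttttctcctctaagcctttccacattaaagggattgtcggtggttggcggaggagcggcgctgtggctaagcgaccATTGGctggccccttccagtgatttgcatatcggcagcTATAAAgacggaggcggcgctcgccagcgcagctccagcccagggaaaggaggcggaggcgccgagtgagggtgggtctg
Pcdh19 (chrX:133688944-133689243, minus strand): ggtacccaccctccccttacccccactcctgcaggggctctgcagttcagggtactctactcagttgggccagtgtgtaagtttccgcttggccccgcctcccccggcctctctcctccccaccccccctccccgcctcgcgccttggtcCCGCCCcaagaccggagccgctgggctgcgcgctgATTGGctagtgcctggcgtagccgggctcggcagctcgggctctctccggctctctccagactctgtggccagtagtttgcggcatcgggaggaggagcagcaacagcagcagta
Pcdh7 (chr5:57717831-57718130, plus strand): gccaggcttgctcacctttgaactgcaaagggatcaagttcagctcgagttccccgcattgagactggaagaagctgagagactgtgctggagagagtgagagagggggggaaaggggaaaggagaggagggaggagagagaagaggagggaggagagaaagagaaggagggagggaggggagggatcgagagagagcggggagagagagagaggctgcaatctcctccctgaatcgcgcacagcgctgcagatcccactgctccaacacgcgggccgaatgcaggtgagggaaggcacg
Pcdh9 (chr14:93890630-93890929, minus strand, the first of the entries for this gene): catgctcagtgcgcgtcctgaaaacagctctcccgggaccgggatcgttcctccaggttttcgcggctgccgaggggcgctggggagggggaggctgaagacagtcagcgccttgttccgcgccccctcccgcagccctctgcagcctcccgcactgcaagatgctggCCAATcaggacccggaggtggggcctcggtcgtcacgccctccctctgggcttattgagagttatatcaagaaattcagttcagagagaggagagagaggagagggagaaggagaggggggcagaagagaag
Pcdh20 (chr14:88471347-88471646, minus strand): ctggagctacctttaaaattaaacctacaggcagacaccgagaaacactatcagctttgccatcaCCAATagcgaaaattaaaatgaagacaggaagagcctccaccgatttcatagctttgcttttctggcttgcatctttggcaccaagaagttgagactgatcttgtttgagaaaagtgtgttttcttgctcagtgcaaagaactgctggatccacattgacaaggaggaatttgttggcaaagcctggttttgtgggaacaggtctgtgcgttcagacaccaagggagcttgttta
Pcdh8 and Pcdh19 both held an inverted CCAAT box, beginning 68 and 65 bases before the start, as did the other delta-2 genes Pcdh17 (58 and 101 bases), Pcdh10 (50) and Pcdh18 (32), whose correlations with Pcdh8 did not pass the test given further on. Pcdh8 also held a TATA box 30 bases before its start. Pcdh9 held a CCAAT box 82 bases and Pcdh20 1 at 185 bases before its start, and none of the motifs searched was found in the 300 bases of Pcdh7. A CCAAT box occurred in 8 of the 9 sequences and in 37.4% of the 32851 sequences of this length in the table. A GC box occurred in 4 of 9 against 35.7%, and a TATA box in 2 of 9 against 13.6%. The palindromes TGACGTCA and CACGTG were found in none of the 9 and in 1.79% and 7.15% of the table, and the core motif of CTCF, searched on both strands, occurred in Pcdh15 alone among the 9 and in 3.43% of the table. GC content was 54.3% in Pcdh8, 67.7% in Pcdh19, 59.3% in Pcdh7 and 62.7% in Pcdh9, against a median of 52.7% over the table, and Pcdh20 had the lowest value of the 9 at 43.7%.

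The levels given here are log2(intensity + 16) of the deposited intensities after quantile normalization, so a difference of 1 is a doubling at levels well above the offset. A level belongs to its own probe set and is not compared with that of another gene. Any pair of arrays correlated at 0.949 or more and at most at 0.993 (median 0.986). The labels name no batches, so arrays were also grouped by the levels of 45 spike-in control probe sets into 3 spike-in batches of 7, 10 and 24 arrays. These cut across the cognition groups, although no high array lay in the first and 1 in the second. The mean of the choroid plexus markers ran from 6.03 to 9.90 over the low and from 6.30 to 9.81 over the medium arrays and from 6.17 to 6.81 over the high arrays; its part in the results was not tested beyond leaving out the arrays bright in these markers.

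The array labelled medium replicate 9 stood apart. On it, 30.7% of the 22519 tested probe sets lay outside the range of the other 40 arrays, and the next array, low replicate 5, had 22.3%. Its mean over the hippocampal principal neuron markers was 7.71, against 8.97 to 9.35 on the other arrays, and 5 of the 8 markers were below the range of the others, among them the dentate gyrus genes Prox1, Dsp and C1ql2, while 1, Camk2a, was above it. Dsp, with 4.57 against 7.76 to 9.59, was below the brightness cut there. Its striatum markers averaged 8.97 against 7.23 to 7.70 and its neocortex markers 8.81 against 7.48 to 7.97, and 5 of 5 tested striatum and 3 of 4 tested neocortex markers exceeded all other arrays. Of the interneuron markers 6 of 7 lay above the other arrays, of the astrocyte markers 3 of 6 below and 1 above, and of the 7 oligodendrocyte and 6 endothelial markers none lay outside. The markers thus went against the tissue label of this array. Differences from medium mice named for the brightest probe sets of single genes are given with and without it. Those of dimmer probe sets are given with it only.

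Of the 37 members, 23 were bright enough to be tested, that is, at or above the median of all probe sets, a log2 level of 5.74. These were 9 of the 12 non-clustered genes, both alpha sets and 12 of the 22 Pcdhb genes. The alpha sets carried 14 and 9 Pcdha symbols, so a single alpha gene could not be read from either. The 14 untested members were Pcdh1, Pcdh12, Pcdh15, Pcdhgc4, the only gamma gene represented, and Pcdhb1, Pcdhb2, Pcdhb4, Pcdhb6, Pcdhb8, Pcdhb11, Pcdhb13, Pcdhb14, Pcdhb18 and Pcdhb22. Their highest level on any array was 6.13, in Pcdhb22. In a fit without the cut none of the 14 passed, and the lowest adjusted limma p among them was 0.722. Just below the cut lay Pcdhb22 with a mean of 5.55 and Pcdhb8 with 5.46, and just above it the alpha set of 9 symbols with 5.76 and Pcdhb5 with 5.80. Pcdh12, known from endothelium, and Pcdh15, a component of the tip links of inner ear hair cells, remained between 4.08 and 5.85 on all 41 arrays. In bulk hippocampus a smaller number of cells expressing a gene and less transcript per cell cannot be told apart.

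No protocadherin passed the test between cognition groups. With limma and Benjamini-Hochberg adjustment over all 22519 tested probe sets, 0 of 23 members were called between high and low mice, where 0.00888% of all tested probe sets were called. The count was also 0 of 23 between high and medium mice (0.0311% of all) and between medium and low mice (0.0% of all), and 0 of 23 for any difference among the 3 groups (0.00888% of all) or a slope over the ordered classes (0.00444% of all). The slope was above 0 in 14 of 23 members and in 51.8% of all. At an unadjusted p under 0.05 there were 0 of 23 for high against low (8.16% of all tested probe sets), 1 of 23 for high against medium (13.2%), 0 of 23 for medium against low (3.1%), 1 of 23 for any difference (8.61%) and 0 of 23 for the slope (5.93%). The single member was Pcdh8 in both cases. The 5 high arrays did not stand clear of the low arrays for any of the 23 members, nor of the medium arrays, where 0.502% and 0.395% of all tested probe sets had groups that did not overlap.

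The differences were also small. Between high and low mice the 23 members ran from -0.17 to 0.20, with standard errors from 0.073 to 0.21. A difference above 0 was found in 13 of 23 members, against 52.1% of all tested probe sets, and the median was 0.028 against 0.0051. Between high and medium mice 11 of 23 were above 0, against 51.9%, and between medium and low mice 12 of 23, against 49.9%. Differences smaller than 0.05 in either direction made up 9 of 23 members between high and low and 14 of 23 between medium and low. The median of the 9 non-clustered members between high and low was 0.074, but -0.032 once the arrays bright in choroid plexus markers were left out.

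**Figure D1:**
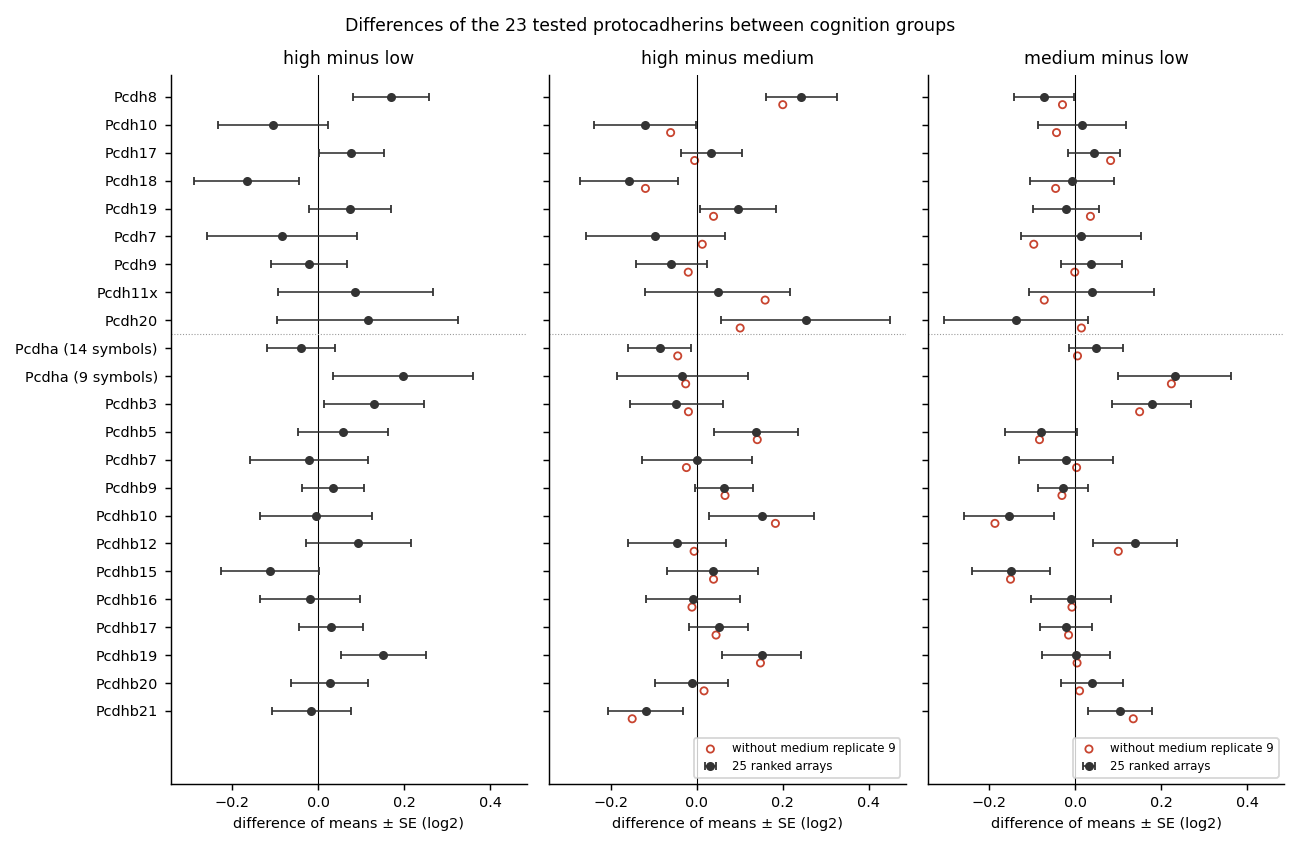
Difference of group means with its standard error (log2, x axis) for the 23 tested protocadherins (rows, non-clustered above the dotted line) in 3 comparisons of cognition groups. Filled points use the 25 ranked arrays and open red points leave out medium replicate 9. No member passed the test, and Pcdh20 between high and medium mice goes from 0.25 to 0.10 without that array.

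Pcdh8, also called arcadlin, is induced by neuronal activity and takes N-cadherin into the cell with it, through the kinase Taok2. Its level on the 5 high arrays was 11.17, 10.96, 11.00, 11.15 and 11.10. The 12 medium arrays ran from 10.36 over a median of 10.84 to 11.01, and the 8 low arrays from 10.65 over 10.88 to 11.17. The high arrays thus lay in the upper part of the range, with overlap on both sides. The high mean of 11.08 ± 0.09 (SD, n = 5) exceeded the medium mean of 10.83 ± 0.17 (SD, n = 12) by 0.24 ± 0.083 (SE), a 1.18-fold difference (limma adjusted p = 0.212, exact two-sided permutation p = 0.00711, unadjusted). Without medium replicate 9 the difference was 0.20 ± 0.066 with an adjusted limma p of 0.194, and over all settings tried for this gene and comparison the lowest adjusted limma p was 0.14.

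Against the low mean of 10.91 ± 0.16 (SD, n = 8) the high mean of Pcdh8 was 0.17 ± 0.088 (SE) higher, with an adjusted limma p of 0.638 and an exact permutation p of 0.0513. Within the third batch, with 4 high, 5 medium and 5 low arrays, high exceeded medium by 0.13 and low by 0.18. Within the second, with 1 high array and with medium replicate 9 among its 5 medium arrays, the values were 0.45 and 0.25. The 14 inconsistently ranked mice ran from 10.77 to 11.13 and so covered most of the same range. The Pcdh8 probe set is of the kind that may cross-hybridise, and a dimmer probe set of this gene gave differences of 0.051 (high minus medium) and 0.055 (high minus low). The first of these includes medium replicate 9, where the dimmer probe set was 9.63 against 9.95 to 10.37 on the other arrays. Leaving that array out raises the medium mean of this probe set, so its difference from medium mice becomes smaller than 0.051. The difference of Pcdh8 was therefore not seen at the same size by its other probe set.

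By their brightest probe sets, the other delta-2 genes differed less. Pcdh19 lies on the X chromosome, acts together with N-cadherin and underlies an epilepsy of girls. Its high arrays were 9.92, 9.86, 9.90, 9.98 and 10.04, against 9.63 to 10.05 in low mice (median 9.91), and the high mean was 0.074 ± 0.096 (SE) above the low mean (adjusted limma p = 0.881). Of its dimmer tested probe sets, 1 had means of 9.413 in high and 9.459 in low mice, the opposite sign. The other had 7.815 and 7.767, the same sign. Pcdh17, which acts in presynaptic assembly, was 9.87 ± 0.09 in high, 9.84 ± 0.15 in medium and 9.80 ± 0.11 in low mice (SD), and 1 low array, at 10.05, stood above the other 7. Its high minus medium difference was 0.033, and -0.0053 without medium replicate 9, so its sign rested on that array. A dimmer probe set of Pcdh17 gave 0.23 ± 0.099 (SE) for the same comparison with medium replicate 9 included (adjusted limma p = 0.329). Pcdh10, which recruits the WAVE complex in growing axons, spread widely among the high mice, at 8.27, 8.64, 8.51, 8.87 and 8.17, and was 0.11 ± 0.13 lower than in low mice (adjusted limma p = 0.868). Of the 5 dimmer tested probe sets of Pcdh10, 1 gave a high minus medium difference of 0.26 ± 0.12 (adjusted limma p = 0.353), and the others lay between -0.069 and 0.056. These values include medium replicate 9, on which the probe set with -0.069 was 9.29 against 8.00 to 8.71 on the other arrays. The high arrays of the brightest probe set included the lowest value of all 41 arrays and 1 value above every low array, which ran from 8.39 to 8.76. Pcdh18, known to bind the adaptor Dab1, had a high minus low difference of -0.17 ± 0.12 and a high minus medium difference of -0.16 ± 0.11 (adjusted limma p = 0.756 and 0.565), the latter -0.12 ± 0.11 without medium replicate 9. Its high arrays ran from 5.67 to 6.49, which spans the low range of 5.98 to 6.45.

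Among the delta-1 genes, Pcdh7 binds the phosphatase inhibitor Set and acts in axon growth. It was 9.25 ± 0.25 in high, 9.34 ± 0.41 in medium and 9.33 ± 0.20 in low mice (SD). The high minus medium difference was -0.097, and 0.013 without medium replicate 9, so its sign rested on that array. Pcdh9, expressed in cortex and linked to sensory processing, was 9.92 ± 0.11, 9.98 ± 0.19 and 9.94 ± 0.13 in the same order, with a high minus low difference of -0.022 ± 0.089 (SE) and a high minus medium difference of -0.059, or -0.020 without medium replicate 9. Pcdh11x, on the X chromosome, had high arrays of 6.40, 6.81, 6.87, 6.98 and 6.86. Its high minus medium difference was 0.049 with all 25 ranked arrays and 0.16 ± 0.11 without medium replicate 9 (adjusted limma p = 0.926 and 0.55). The dimmer tested probe sets of Pcdh7 and Pcdh11x gave the opposite sign to the brightest with all 25 ranked arrays, at 0.10 and -0.26 for high minus medium. On medium replicate 9 they were 7.07 and 7.32, above the other arrays (6.05 to 7.04 and 5.87 to 6.81). Leaving that array out lowers their medium means, so both tested probe sets of Pcdh7 then shared the sign of the difference. Pcdh1, best known from epithelia, was too dim to test and lay between 4.48 and 5.48 on all arrays.

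Pcdh20, a non-clustered gene outside the delta groups, showed how far 1 array could set a group. Its high arrays were 10.75, 10.50, 10.41, 10.40 and 10.51, and the low arrays ran from 10.17 to 10.64. The medium mean was 10.26 ± 0.54 (SD, n = 12), with 8.59 on medium replicate 9 and 10.23 to 10.69 on the other 11. The high minus medium difference of 0.25 ± 0.20 (SE), the largest of the 23, was 0.10 ± 0.074 without that array, and the medium minus low difference went from -0.14 to 0.014. Neither passed the test (adjusted limma p = 0.596 and 0.587 for high minus medium, with and without the array).

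**Figure D2:**
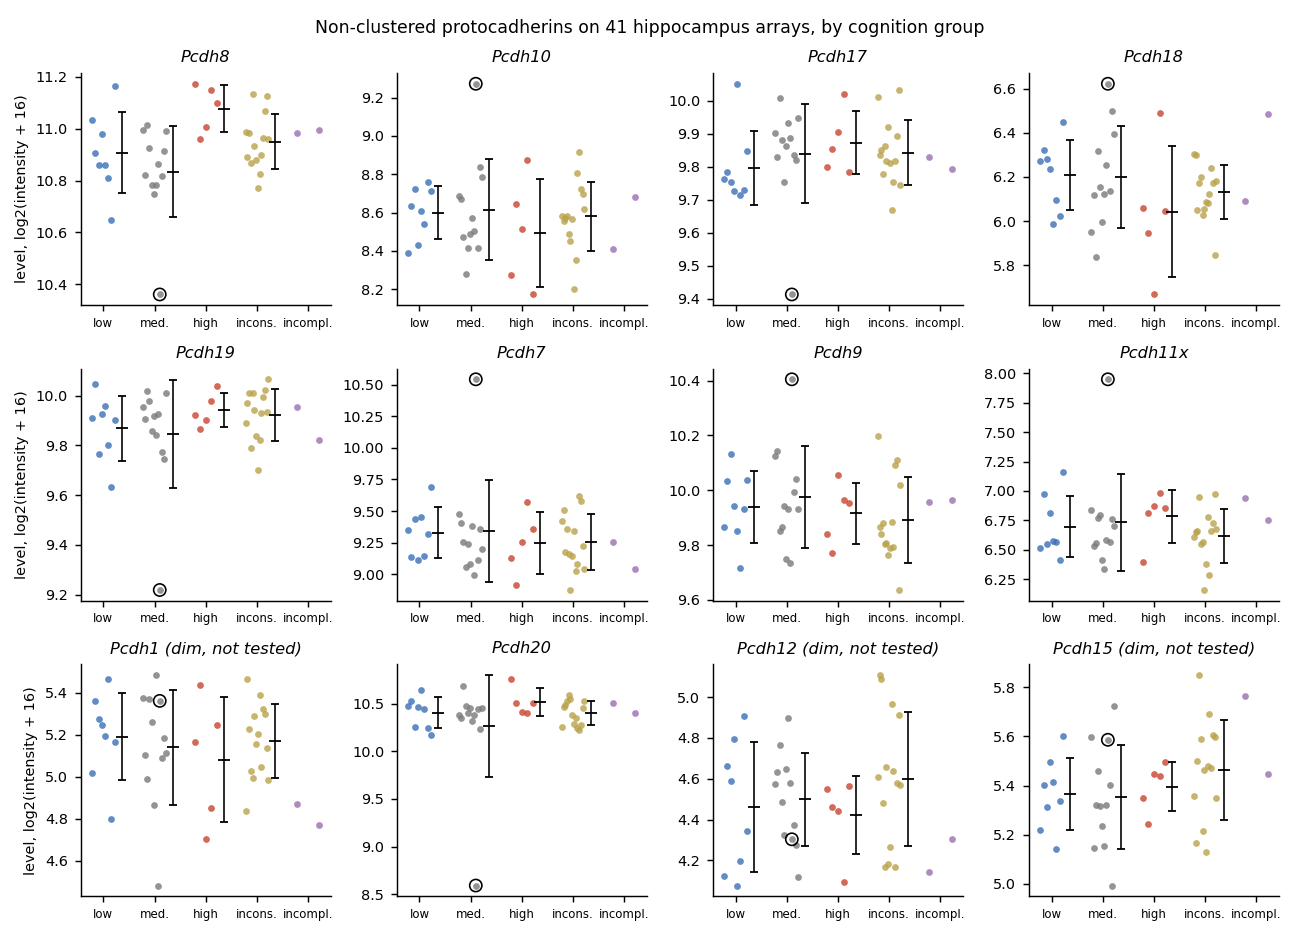
Level (log2(intensity + 16), y axis, scale set for each gene) of the 12 non-clustered protocadherins on 41 arrays, 1 point per mouse, by cognition group. Bars show mean ± SD for groups of 5 or more, and the ringed point is medium replicate 9, which is the lowest point of all for Pcdh8, Pcdh17, Pcdh19 and Pcdh20 and the highest for Pcdh7, Pcdh9, Pcdh10, Pcdh11x and Pcdh18.

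The clustered members also gave small differences. Of 14 tested, 8 were above 0 between high and low mice with a median of 0.027, and 6 between high and medium mice with a median of -0.0044, which was 0.0050 without medium replicate 9. The lowest adjusted limma p was 0.711 between high and low and 0.491 between high and medium mice. The alpha set of 14 symbols was narrow among the high mice, at 10.44, 10.40, 10.44, 10.39 and 10.50, and its high minus low difference was -0.040 ± 0.079 (SE). The alpha set of 9 symbols, close to the brightness cut, was 5.81 ± 0.09 in high, 5.85 ± 0.24 in medium and 5.62 ± 0.45 in low mice (SD). Its low arrays, from 4.93 to 6.19, spanned the high group, while the medium arrays ran from 5.49 to 6.38. The medium minus low difference of 0.23 ± 0.13 (SE) had an adjusted limma p of 0.998 and was 0.22 without medium replicate 9.

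Among the Pcdhb genes, the 4 with the smallest p for any difference among groups were Pcdhb3, Pcdhb19, Pcdhb21 and Pcdhb10, with adjusted limma p from 0.715 to 0.766. Pcdhb3 was 7.26 ± 0.23 in low, 7.44 ± 0.21 in medium and 7.39 ± 0.19 in high mice (SD), a medium minus low difference of 0.18 ± 0.093 (SE), or 0.15 without medium replicate 9. Pcdhb19 had high arrays of 6.21, 6.31, 6.18, 6.55 and 6.41, and exceeded both other groups by 0.15, with standard errors of 0.098 against low and 0.091 against medium mice. Pcdhb21 was 0.12 ± 0.087 lower in high than in medium mice, and Pcdhb10 was 0.15 ± 0.12 higher. A dimmer tested probe set of Pcdhb21 had a mean of 5.87 in high and in medium mice and 5.75 in low mice. Without medium replicate 9 the high minus medium differences of Pcdhb19, Pcdhb21 and Pcdhb10 were 0.15, -0.15 and 0.18. These 4 genes did not share one order of the groups. The remaining 8 tested Pcdhb genes had high minus low differences from -0.11 to 0.093.

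On medium replicate 9, the non-clustered and clustered members departed to different extents. All 9 tested non-clustered genes lay outside the range of the other 40 arrays, and 2 of the 14 tested clustered members did, where 30.7% of all tested probe sets lay outside. Pcdh20 was 8.59 against 10.17 to 10.75, or 3.56-fold below the mean of the others. Pcdh19, at 9.22 against 9.63 to 10.07, was 1.61-fold below, Pcdh8 1.49-fold below and Pcdh17 1.35-fold below. In the other direction, Pcdh7 was 10.54 against 8.88 to 9.69, or 2.44-fold above, and Pcdh11x 7.95 against 6.16 to 7.16, or 2.43-fold above. Pcdh10 was 1.63-fold, Pcdh9 1.40-fold and Pcdh18 1.39-fold above the mean of the others. For Pcdh9 the direction depended on the probe set, since 1 dimmer tested probe set was 7.52 against 7.86 to 8.70, or 1.68-fold below, and the other was inside the range. Some dimmer probe sets of Pcdh10 were also inside, at 6.25 within 5.46 to 6.80 and 6.24 within 5.42 to 6.40. Its remaining dimmer ones were above the range. The clustered members outside the range were the alpha set of 14 symbols, 1.45-fold above, and Pcdhb12, 1.43-fold above. Pcdhb12 is named for this value. Both dimmer probe sets of the same 14 symbols were inside the range, at 9.39 within 9.03 to 9.54 and 7.83 within 7.34 to 7.87. The difference between the groups of members was not tested, since it comes from 1 array, and the part played in it by the marker levels of that array was not tested.

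**Figure D3:**
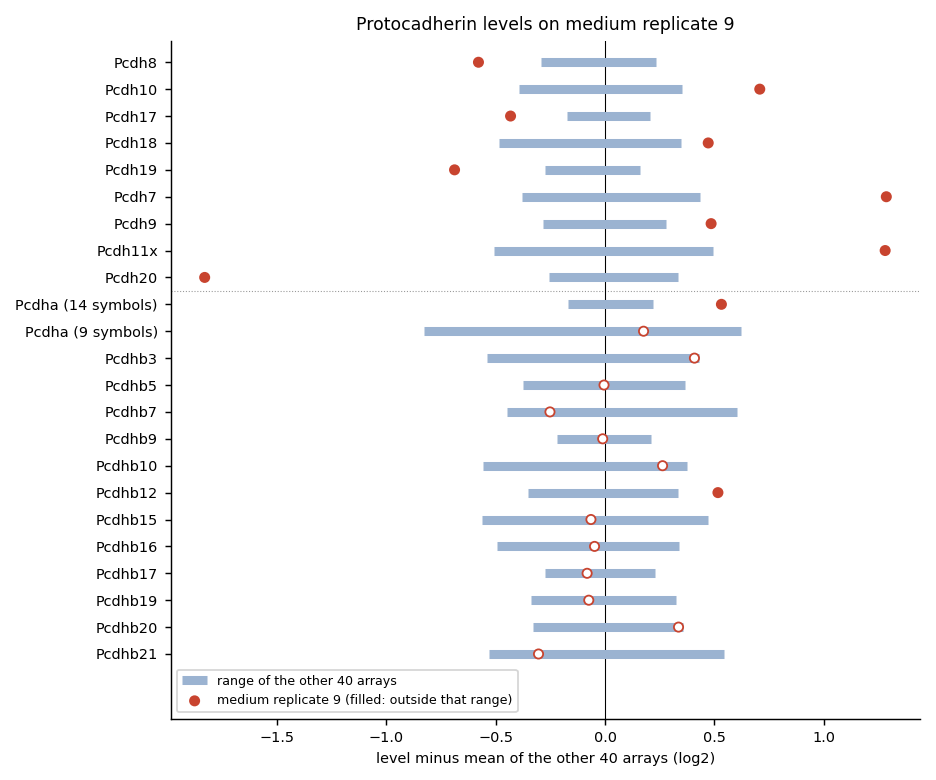
Level on medium replicate 9 minus the mean of the other 40 arrays (log2, x axis) for the 23 tested protocadherins, with blue bars for the range of the other 40. Filled points lie outside that range; these are all 9 non-clustered genes (4 below, 5 above) and 2 of 14 clustered members.

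The co-variation within the family depended largely on that array. Over all 41 arrays, 24 of 253 pairs of tested members had a correlation that passed an adjusted permutation p of 0.05, and 16 of these were among the 36 pairs of non-clustered genes. Without medium replicate 9, 4 of 253 pairs passed, 2 of them among the 36 non-clustered, and the median r over all pairs was 0.078. The share of passing pairs among all tested probe sets is not given here, so these counts do not set the family apart. The pairs below are named because they passed without that array, and their permutation p-values, from 100000 resamples, were adjusted over the 253 pairs.

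The delta-2 genes Pcdh8 and Pcdh19 gave r = 0.59 over 40 arrays (permutation p = 8e-05, adjusted 0.0202) and rho = 0.53 (permutation p = 0.00059, adjusted 0.0498). Within the 3 batches r was 0.45, 0.55 and 0.65, and without the 2 arrays farthest from the median of Pcdh19 it was 0.46. Of all tested probe sets, 0.355% correlated as strongly with Pcdh8 as Pcdh19 did, and 0.0755% as strongly with Pcdh19 as Pcdh8 did. The delta-1 genes Pcdh7 and Pcdh9 gave r = 0.54 (permutation p = 0.0003, adjusted 0.0295) and rho = 0.54 (permutation p = 0.00048, adjusted 0.0498), with 0.42, 0.76 and 0.50 within batches and 0.52 without the 2 farthest arrays. For this pair 0.333% of all tested probe sets correlated as strongly with Pcdh7, and 0.222% as strongly with Pcdh9. Both pairs kept their sign in every batch.

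Of the clustered pairs, Pcdhb9 and Pcdhb10 gave r = 0.53 (permutation p = 0.00049, adjusted 0.031) and rho = 0.58 (permutation p = 0.00018, adjusted 0.0455). Within batches r was 0.19, 0.64 and 0.49, and 0.61 without the 2 farthest arrays. Of all tested probe sets, 0.315% correlated as strongly with Pcdhb9 and 0.04% as strongly with Pcdhb10. Pcdh11x and Pcdhb20 gave r = 0.53 (permutation p = 0.00035, adjusted 0.0295) but rho = 0.46 with an adjusted permutation p of 0.135. Their r within the second batch was 0.039, so this relation did not hold in each batch. Of all tested probe sets, 0.759% correlated as strongly with Pcdh11x and 0.209% as strongly with Pcdhb20. The strongest negative value, between Pcdh10 and Pcdh20, was r = -0.47 (permutation p = 0.00259, adjusted 0.0987), with -0.65, -0.74 and -0.32 within batches, and did not pass. For Pcdh20 with Pcdh7 it was -0.42 (permutation p = 0.0068, adjusted 0.169).

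**Figure D4:**
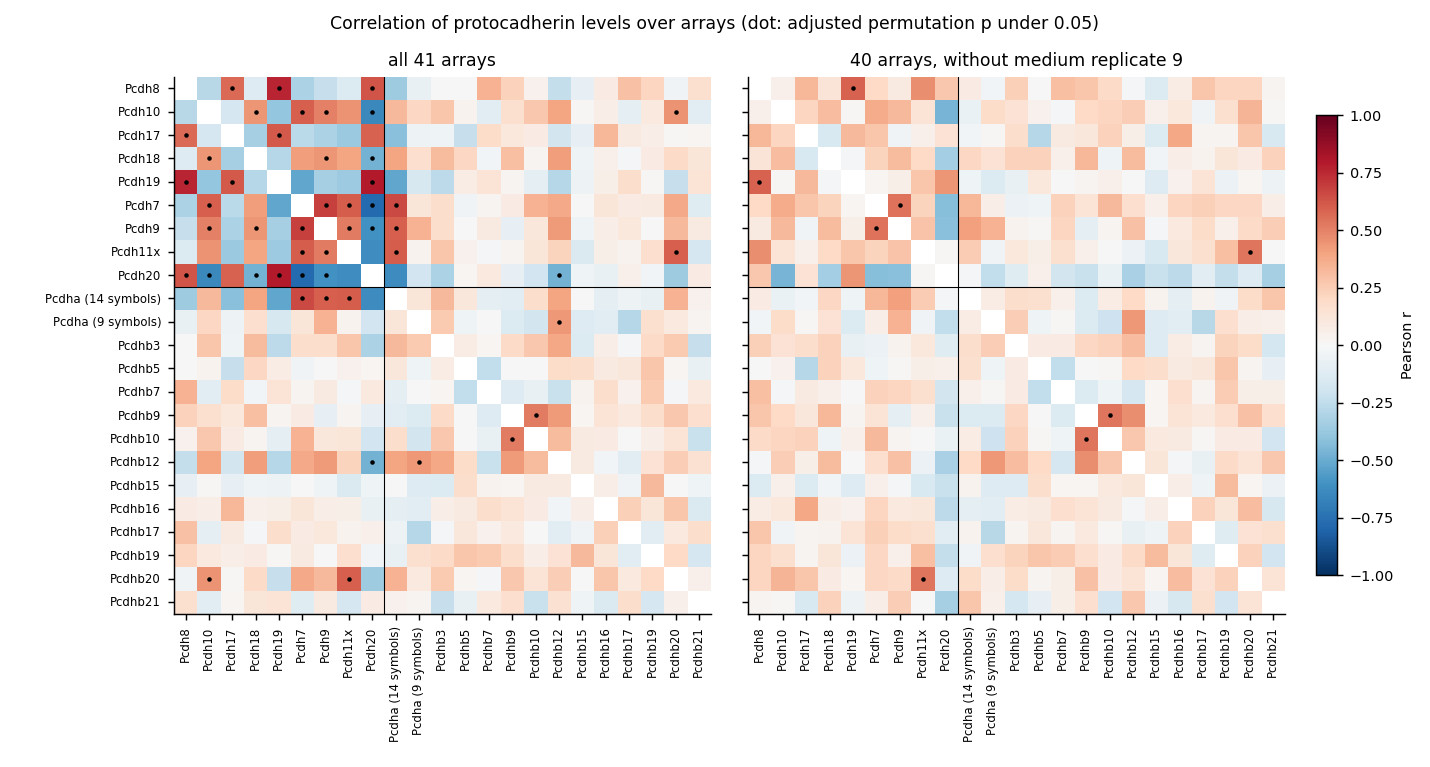
Pearson r over arrays between all pairs of the 23 tested protocadherins, with all 41 arrays (left) and without medium replicate 9 (right); black lines part non-clustered from clustered members and dots mark an adjusted permutation p under 0.05. The block of strong positive and negative values among the non-clustered genes at the upper left of the first panel, with 16 dotted pairs, has 2 dotted pairs in the second.

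Means of groups of members were also correlated, with permutation p-values adjusted over their 6 pairs. The mean of the 5 delta-2 genes and that of the 3 tested delta-1 genes correlated at 0.16 over 41 arrays (adjusted permutation p = 0.456). Over 40 arrays it was 0.50 (adjusted permutation p = 0.00654), with -0.15, 0.11 and 0.58 within batches. The beta mean correlated at 0.38 with the delta-1 and 0.42 with the delta-2 mean over 40 arrays (adjusted permutation p = 0.0343 and 0.0212). The alpha mean correlated at 0.10 with the beta mean over 40 arrays (adjusted permutation p = 0.541). Alpha with delta-1 passed over 41 arrays (adjusted permutation p = 0.0407) but not over 40 (0.191). With no normalization between arrays, all 6 pairs of these means correlated between 0.81 and 0.96 over 41 arrays.

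Correlations with the neocortex markers (Cux2, Rorb, Fezf2 and Tbr1, transcription factors of cortical layers) were seen among the 40 arrays without medium replicate 9. They were positive for Pcdh9 and Pcdh7 and negative for Pcdh20. Over 230 combinations of 23 members and 10 marker lists, 3 passed on r. The share of all tested probe sets that correlated as strongly with the neocortex list is not given here. Pcdh9 gave r = 0.69 with the mean of the neocortex list (permutation p = 1e-05, the smallest that the permutations can give, adjusted 0.0023) and rho = 0.72 (adjusted permutation p = 0.0023). Its r was 0.60, 0.75 and 0.73 within the 3 batches and 0.67 without the 2 arrays farthest from the median. Pcdh7 gave r = 0.55 (adjusted permutation p = 0.023), with 0.57, 0.67 and 0.58 within batches, and rho = 0.51 (adjusted 0.0721). Pcdh20 went the other way, with r = -0.57 (adjusted permutation p = 0.0138), -0.28, -0.95 and -0.50 within batches, and rho = -0.48 (adjusted 0.0816). Pcdh7 and Pcdh20 thus passed on r alone. Pcdh10 and Pcdh11x, with r = 0.49 each, did not pass on r (adjusted permutation p = 0.0644), although rho of Pcdh10, 0.54, did (adjusted permutation p = 0.0483). The brightest probe sets of Pcdh9 and Pcdh7, which followed the list upwards, were also above the range of the other arrays on medium replicate 9, where the list was high, and Pcdh20 was below it; the part of these marker levels in the pairs above was not tested. Ranges of the neocortex list overlapped between the cognition groups, from 7.51 to 7.97 in low, 7.48 to 8.81 in medium and 7.49 to 7.80 in high mice.

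**Figure D5:**
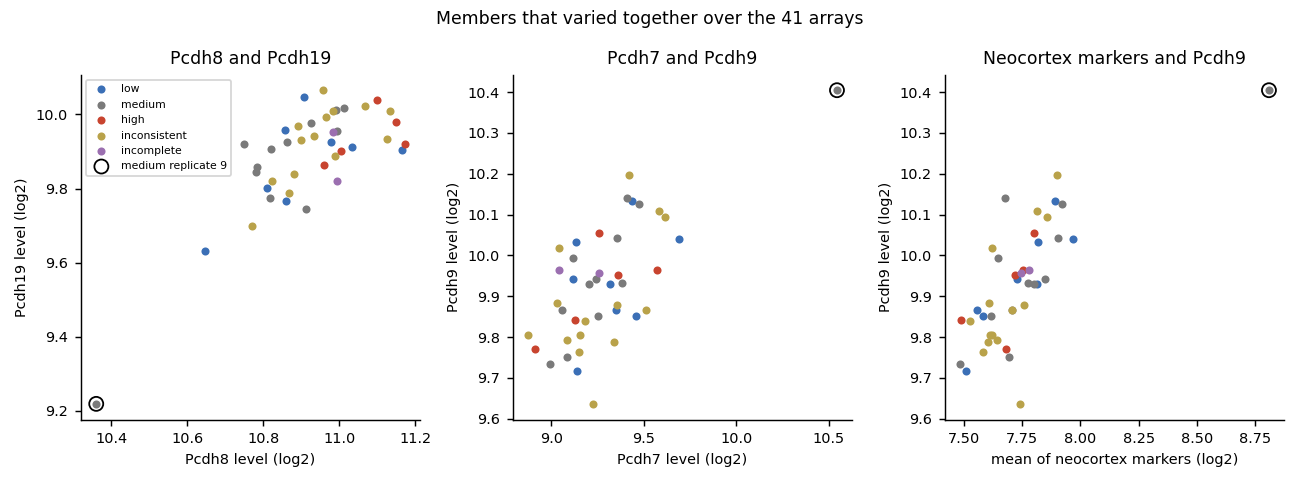
Levels (log2) of Pcdh19 against Pcdh8, of Pcdh9 against Pcdh7, and of Pcdh9 against the mean of the neocortex markers, 1 point per array, coloured by cognition group. Medium replicate 9 is ringed far from the rest in each panel, and over the other 40 arrays r was 0.59, 0.54 and 0.69 with the colours mixed along each cloud.

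Where a gene had several tested probe sets, their agreement over the 40 arrays gave a measure of how much of the variation between mice the array could repeat. Of 18 pairs of the brightest and another probe set, 7 passed an adjusted permutation p of 0.05. For Pcdh20 r was 0.56 (adjusted permutation p = 0.00522), for Pcdh10 it was 0.52 and 0.38 in 2 of 5 pairs, for Pcdh19 0.45, and for Pcdh17, Pcdh8 and Pcdh7 0.41, 0.41 and 0.40, with rho of these 7 pairs between 0.32 and 0.59. Without the 2 farthest arrays r of these 7 pairs ran from 0.27 for Pcdh7 and 0.28 for Pcdh8 to 0.53 for Pcdh10. The other probe sets of the 14 alpha symbols gave 0.012 and -0.18 with the brightest, so the variation of the alpha set between mice was not repeated by probe sets with the same symbols. For Pcdh9, which correlated best with the neocortex markers, the values were 0.32 and 0.24 (adjusted permutation p = 0.0997 and 0.238).

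Genes that regulate or partner the family were examined in the same fit, and none was called in any comparison. Of the 15 genes of promoter choice and chromatin loops, 13 were tested, with a median high minus medium difference of -0.0071 and 4 at an unadjusted limma p under 0.05 (13.2% of all tested probe sets). Rad21, the cleavable subunit of the cohesin ring, was 9.74 ± 0.16 in high, 10.11 ± 0.17 in medium and 10.01 ± 0.27 in low mice (SD). It was thus 0.37 ± 0.11 (SE) lower in high than in medium mice (adjusted limma p = 0.171), and 0.35 lower without medium replicate 9. Pds5b, which binds cohesin, was 0.14 ± 0.057 higher (adjusted limma p = 0.299), and 0.12 higher without medium replicate 9. Of the 17 signalling partners 14 were tested, with a median of 0.019 and 4 at that unadjusted p. Among them the Rac activator Tiam1 was 0.22 ± 0.074 lower in high than in medium mice (adjusted limma p = 0.215) and the beta-catenin scaffold Axin1 0.16 ± 0.072 lower (adjusted limma p = 0.333). Without medium replicate 9 their high minus medium differences were -0.18 and -0.16.

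Of the 9 WAVE complex genes 8 were tested, with a median high minus medium difference of 0.0082 and 1 at that unadjusted p. Wasf2 was 0.17 ± 0.060 higher and Cyfip2 0.13 ± 0.071 lower (adjusted limma p = 0.23 and 0.448), and without medium replicate 9 the differences were 0.18 and -0.089. Among the related adhesion genes, 14 of 16 classical cadherins and catenins were tested, 1 of them at that unadjusted p. Ctnnb1 (beta-catenin) was 0.12 ± 0.056 higher and Cdh11 0.094 ± 0.082 lower in high than in medium mice (adjusted limma p = 0.354 and 0.647), and without medium replicate 9 the differences were 0.11 and -0.13. Of 12 seven-pass and giant cadherins 9 were tested, with 0 at that unadjusted limma p. Celsr3, which guides axon tracts, and Dchs1, a ligand of Fat4, differed by -0.061 ± 0.093 and -0.18 ± 0.12 (adjusted limma p = 0.817 and 0.511), or -0.057 and -0.15 without medium replicate 9. The medians of these last lists, -0.044 and -0.059, lay below that of all tested probe sets, 0.0053.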

How the data were processed

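The authors deposited 1 table of linear intensities, 1 value per probe set and array, and Partek and RMA are listed, without their roles, in the submitters' processing notes. The build, the batch of each array and the scan date are not given in the sources used here. Deposited intensities ran from 0.0112 to 13549, with array medians from 22.4 to 55.2, and no counts or depth exist for arrays, whose number limits the precision. Arrays were quantile-normalized, an offset of 16 was added and log2 taken. Spike-in batches came from Ward clustering of 45 spike-in probe sets, a grouping made from the data. Of 45101 probe sets, 64 controls were left out, and of the rest 34945 had 1 gene symbol, 932 several and 9160 none in the platform annotation. The 22519 probe sets at or above the median brightness were tested with limma 3.58.1 (R 4.3.3), with 1 mean per group over the 25 ranked mice, and p-values were adjusted by Benjamini-Hochberg over all of them at a threshold of 0.05. Single members were also compared by an exact two-sided permutation test. Correlations were tested with 100000 permutations (scipy 1.17.1), two-sided. The 41 arrays are taken as separate mice from the labels, and p-values measure the spread between them. The code was tested on simulated data with independent probe sets. Between high and low, 10% of 50 simulated differences of 0.25 and 90% of 50 of 0.5 were called. The same simulated data held 50 differences of 1 and 50 of 2, all of them called. These ease the Benjamini-Hochberg threshold, so the shares called may be too high for data with few differences. Most differences of the size seen here could therefore have been missed.

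All non-clustered genes are named, and of each clustered group up to 4 tested members by the smallest p of the F test, members called or with an outlying array, those next to the brightness cut, and of every other list 2 genes by the same p. Members and lists were chosen with earlier results of these data known. Normalization, offset, filter, variance model, batch, replicate block, probe set and the arrays included were varied, and arrays without a rank entered no comparison.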

Additional observations from a re-analysis of the deposited data

Results flagged for a closer look

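Among the low mice, Pcdh17 on replicate 5 was 10.05, above the next array at 9.85, and its gap to that array was 0.603 of the range of the 8 low mice, more than Dixon's 95% critical value. This array is in the third spike-in batch and was also the array with the second largest share of probe sets outside the range of the others. It was 1 of 46 groups of arrays examined, and chance gives such a value in about 1 in 20 groups.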

How the results depend on the processing

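No protocadherin was called between cognition groups under any of 15 alternatives (14 for a difference among all 3 groups) or with any 1 of the 25 ranked arrays left out. Over 45 settings, 2554 of 2775 values of single members kept their direction and 221 changed sign, in 51 of 69 combinations of member and comparison, 95 of these on leaving out 1 array. With no normalization between arrays, the median of the clustered members was -0.055 for high minus low, -0.20 for high minus medium and 0.092 for medium minus low, and that of the non-clustered members -0.022, -0.17 and 0.13. The non-clustered high minus low median was -0.032 once arrays with bright choroid plexus markers were left out. In batch 2 alone, with 1 high array, it was -0.15 and that for high minus medium -0.14. Leaving out 1 array, the clustered medians ran from 0.0018 to 0.048, from -0.021 to 0.023 and from -0.017 to 0.045 in the same order, the non-clustered from 0.037 to 0.080, from -0.0033 to 0.052 and from -0.030 to 0.034, and the members called from 0 to 0. The causes were not tested.

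Correlations of group means, given here as values alone, depended on scaling and arrays. Without medium replicate 9 they were 0.10 for alpha with beta, 0.245 for alpha with delta-1, 0.13 for alpha with delta-2, 0.376 for beta with delta-1, 0.42 for beta with delta-2 and 0.502 for delta-1 with delta-2. With arrays of bright choroid plexus markers left out, and medium replicate 9 kept, alpha with delta-1 was 0.407 and beta with delta-2 0.248. With arrays centred on their medians, alpha with beta was 0.537, alpha with delta-2 0.565, beta with delta-1 0.565 and delta-1 with delta-2 0.555, and with no normalization these were 0.897, 0.8995, 0.811 and 0.814. An offset of 1 gave 0.333 for alpha with delta-1 and 0.381 for beta with delta-2, and an offset of 50 gave 0.353 for beta with delta-1. The alternatives without medium replicate 9 and the scalings of these correlations were chosen after seeing the data.

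With the replicate number as a block, 0 members were called, and the medians were -0.0004, 0.060 and -0.015 for clustered and 0.038, -0.0002 and -0.041 for non-clustered members. Mice with the same number did not deviate together (18 pairs, r from -0.171 to 0.141, median -0.019). The check thus gave no sign of a pairing by number, and a pairing without shared deviations could not be seen by it.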
